A study of Mus musculus with 6 samples.

Results

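Genes for meiotic chromosome synapsis and recombination were followed in whole mouse testes of 3 groups. The set held 34 genes named by function. They covered the synaptonemal complex and chromosome axis, cohesin, the making and repair of double-strand breaks, crossovers, and checkpoint and damage signalling. Among the 34 were also 2 other germ cell division genes, Ccna1 and Meig1. Members were the probes whose platform gene symbol was one of the 34, which found 21 genes with 1 probe each among 33012 probes and 13840 named genes. Of the 21, 20 were bright enough to be tested and 19 were detected on every array. The remaining 13 genes (Sycp3, Syce1, Hormad2, Spo11, Mei1, Prdm9, Rad51c, Rad50, Brca2, Mlh3, Ccnb1ip1, Atr and Trip13) had no probe listed under their symbol and were not analysed here. They include all 3 listed genes of double-strand break formation.

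Meiosis in the male begins when spermatocytes cut their own DNA, and the cuts are repaired on the homologous chromosome with the help of recombinases. While this happens, cohesin and axis proteins shape each chromosome into a row of loops, and the synaptonemal complex zips the homologues together along their length. A subset of repair sites is turned into crossovers, which hold homologues together until the first division, and mouse spermatocytes that fail in synapsis or repair are typically lost in mid-prophase.

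The samples were testes of adult male C57BL/6J mice aged 10 to 12 weeks, with 2 mice and 2 arrays in each group: wild-type mice on rodent chow, Abcg8 knockout mice on the same chow, and Abcg8 knockout mice whose chow held 0.005% ezetimibe. Abcg8 encodes one partner of a transporter that exports plant sterols and cholesterol from liver and gut, and ezetimibe blocks sterol uptake from the gut. The sources used here do not say how the knockout allele was made or whether mice were littermates. The knockout was not restricted to testis by the labels, and whole testis mixes germ cells with Sertoli, Leydig, vascular and immune cells, so fewer spermatocytes and less RNA per spermatocyte cannot be told apart.

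The probe of Abcg8 had a raw signal of 1715 and 569 in mice labelled wild-type, of 20013 and 22134 in chow-fed mice labelled knockout and of 25697 and 24767 in those given ezetimibe, which goes against the direction of the labels. Genotypes are therefore given below as labelled. Median raw signals were 258 to 678 per array, the lowest on wild-type replicate 2, and 15371 to 16632 probes were detected on an array. Of 9 spermatocyte markers outside the set, 8 were detected on all 6 arrays, as were 8 of 8 round spermatid and 9 of 9 elongating spermatid markers, while 0 of 3 epididymal markers were detected on any array. The summed normalised signal of the spermatocyte markers was 2816330 and 3255320 in wild-type-labelled testes, 3198820 and 2854540 in knockout-labelled testes and 3242240 and 3274120 with ezetimibe. Such sums are weighted to the brightest markers. Over the 8 spermatocyte markers tested, the median log2 deviation from each gene's mean was -0.02 and 0.05, -0.04 and 0.06, and 0.05 and 0.04. The sums and the medians thus ordered the arrays differently. The 2 blood markers on the array summed to 68503 and 66077, 326714 and 163149, and 36791 and 57807 in the same order, and were highest on both arrays labelled knockout. The 8 peritubular and fibroblast markers were also highest there, at 130253 and 101989 against 94579 and 87802 in wild-type-labelled testes and 73828 and 84710 with ezetimibe. So were the 10 Sertoli markers, at 936971 and 897295 against 845197 and 850005, and 757909 and 840403. The 8 round spermatid markers were lowest there, at 1822590 and 1927910 against 1999140 and 2136120, and 1975350 and 2023370. The 9 elongating spermatid markers summed to 4406700 and 6428380, 4892400 and 4843490, and 4952870 and 4748770, highest on wild-type replicate 2. The 7 Leydig markers summed to 110190 and 107094, 112802 and 112801, and 92351 and 98616, and the 8 macrophage markers to 77953 and 72161, 78385 and 80585, and 58391 and 65227, both lowest on the ezetimibe arrays. The part of these markers in the values below was not tested.

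A sequence feature that the choice of genes did not use was looked for at the start sites. RefSeq windows of GRCm38.p6, from 250 bases before to 50 bases after the gene start, were given for 29 of the 34 genes and for 17 of the 20 tested, and the first window listed was read for each. The hexamer GCGGGA, the core of an E2F site, lay on either strand in 12 of the 17 windows, or 70.6%, against 33.1% of 6815 windows of genes tested on the array and 5410 of 27025 windows in all. All 3 cohesin genes held it (Smc1b, Stag3 and Rec8), as did Sycp1, Syce2, Tex12, Hormad1, Dmc1, Psmc3ip, Mnd1, Msh5 and Atm, and it was not found in the windows of Sycp2, Msh4, Rad18, Ccna1 and Meig1. The 17 windows had a median of 24 CpG dinucleotides, against 20 for genes tested on the array, and among windows with at least 24 CpG dinucleotides 7 of 9 members and 51.3% of genes tested on the array held the hexamer. The MYB core AACNG was found in 15 of 17 windows (88.2%, against 79.0% of genes tested on the array), and CNCCTCAG, a motif described for STRA8, in 3 of 17 (17.6%, against 9.33%). Over the 29 windows there were 22 matches of GCGGGA on either strand, 1 of which overlapped a match of another motif.

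The windows of the 4 tested genes with the lowest unadjusted p in any comparison are printed here in full, 5′ to 3′ along the gene as RefSeq lists them, because the largest differences relative to their error fell on these genes. Capitals mark GCGGGA or its complement TCCCGC. The window of Mnd1 is chr3:84155737-84156036, minus strand, that of Msh5 chr17:35046573-35046872, minus strand, that of Hormad1 chr3:95559427-95559726, plus strand and that of Ccna1 chr3:55055006-55055305, minus strand.
Mnd1: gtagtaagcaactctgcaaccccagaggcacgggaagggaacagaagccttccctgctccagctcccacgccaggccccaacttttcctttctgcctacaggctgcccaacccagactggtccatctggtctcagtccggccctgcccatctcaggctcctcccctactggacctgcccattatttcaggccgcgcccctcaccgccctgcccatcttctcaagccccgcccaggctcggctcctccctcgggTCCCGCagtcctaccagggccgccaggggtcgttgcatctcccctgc
Msh5: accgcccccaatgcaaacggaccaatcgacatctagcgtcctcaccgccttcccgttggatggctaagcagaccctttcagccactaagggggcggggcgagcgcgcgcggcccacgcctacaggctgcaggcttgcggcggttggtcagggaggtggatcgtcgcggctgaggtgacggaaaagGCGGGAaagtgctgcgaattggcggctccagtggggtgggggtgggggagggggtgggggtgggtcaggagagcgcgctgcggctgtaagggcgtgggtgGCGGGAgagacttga
Hormad1: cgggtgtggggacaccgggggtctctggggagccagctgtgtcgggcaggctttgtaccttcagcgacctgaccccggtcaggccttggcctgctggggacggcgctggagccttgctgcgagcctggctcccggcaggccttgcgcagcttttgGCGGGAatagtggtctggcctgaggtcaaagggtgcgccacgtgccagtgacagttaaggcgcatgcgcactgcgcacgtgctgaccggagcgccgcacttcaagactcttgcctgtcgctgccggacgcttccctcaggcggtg
Ccna1: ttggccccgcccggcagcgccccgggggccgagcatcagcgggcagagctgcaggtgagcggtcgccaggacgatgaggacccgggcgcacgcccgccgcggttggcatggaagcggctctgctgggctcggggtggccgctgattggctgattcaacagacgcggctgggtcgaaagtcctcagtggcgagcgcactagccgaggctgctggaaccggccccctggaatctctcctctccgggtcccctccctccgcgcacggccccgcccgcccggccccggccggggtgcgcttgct
Mnd1 and Hormad1 held 1 match each, Msh5 held 2 and Ccna1 held none. A match is a run of letters and not a measured binding site.

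Signals are given as log2 values after quantile normalisation, which sets all arrays to 1 common distribution, so 1 unit is a 2-fold difference. They are read across arrays for 1 probe and not between probes. A probe counts as detected where the deposited signal-to-noise is at least 3. Tests come from limma's moderated linear model over all 16015 probes that were detected on both arrays of at least 1 group, with Benjamini-Hochberg adjustment over those probes, a threshold of 0.05 and an SE for each difference. Beside the tests, groups are said to be apart where both arrays of one group lie above both arrays of the other. Differences are given singly for most comparisons in which a gene's groups were apart, and the rest enter the counts.

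**Figure D1:**
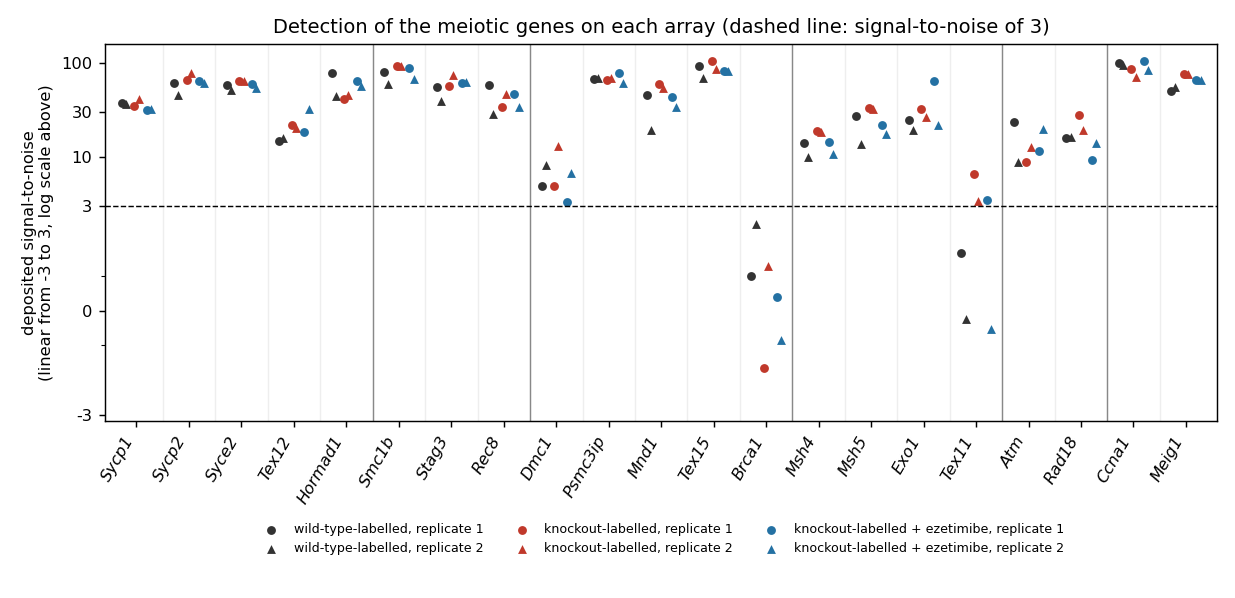
Deposited signal-to-noise (vertical axis, linear up to 3 and logarithmic above) of the 21 meiotic genes on the array, 1 point per array, ordered by role with grey lines between roles. Brca1 lies below the dashed detection line at 3 on all 6 arrays, Tex11 passes it on 3 arrays, and the other 19 genes lie above it on every array.

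Of the 5 tested genes of the synaptonemal complex and chromosome axis, none passed the test in any comparison. Sycp1 makes the transverse filaments that span the gap between paired homologues. It read 14.51 and 14.61 in wild-type-labelled testes, 14.66 and 14.24 in knockout-labelled testes and 14.41 and 14.65 with ezetimibe, so both its highest and its lowest value came from knockout-labelled testes. Sycp2, an axis protein that forms the lateral elements, read 14.21 and 14.40, then 14.31 and 14.41, then 14.23 and 14.34 in the same order of groups, and all 3 groups overlapped. Tex12, which with Syce2 builds the central element, read 13.56 and 13.68, 13.74 and 13.57, and 13.70 and 13.74, and spanned 0.18 log2 units, the narrowest span of the 20 tested genes. Its ezetimibe arrays were apart from the wild-type-labelled ones by 0.10 (SE 0.11, limma adjusted p = 0.87), which came to 0.04 without wild-type replicate 1.

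Syce2 was low on 1 array only, at 17.21 on wild-type replicate 2 against 17.57 on wild-type replicate 1, 17.59 and 17.59 in knockout-labelled testes and 17.47 and 17.59 with ezetimibe. Knockout-labelled testes were apart from wild-type-labelled ones by 0.20 (SE 0.15, limma adjusted p = 0.638), which came to 0.02 without wild-type replicate 2. Hormad1, an axis protein that marks chromosomes not yet synapsed, read lowest in knockout-labelled testes, though its difference from wild-type-labelled testes turned from -0.06 to 0.05 under median scaling and with the authors' processed values. It read 13.53 and 13.46 in wild-type-labelled testes, 13.45 and 13.41 in knockout-labelled testes and 13.62 and 13.65 with ezetimibe, and all 3 pairs of groups were apart. The largest of its differences, between the ezetimibe arrays and the knockout-labelled arrays, was 0.20 (SE 0.09, limma adjusted p = 0.884), with the raw signal at 14742 and 14788 against 13511 and 11423.

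The 3 cohesin genes, which hold sister chromatids together in meiosis, did not move one way. Smc1b, the meiotic SMC subunit, read 15.29 and 15.61, 15.30 and 15.37, and 15.22 and 15.34 in wild-type-labelled, knockout-labelled and ezetimibe testes, and its groups overlapped in every comparison. Stag3, the meiotic STAG subunit, read 15.68 and 15.62, 15.74 and 15.95, and 15.81 and 15.69, with both wild-type-labelled arrays lowest. Knockout-labelled testes were higher than wild-type-labelled ones by 0.20 (SE 0.12, limma adjusted p = 0.59), or 0.09 without knockout replicate 2 and 0.31 under median scaling. Rec8, the meiotic kleisin that closes the cohesin ring, went the other way. It read 14.47 and 14.68 in wild-type-labelled testes, 14.38 and 14.41 in knockout-labelled testes and 14.37 and 14.42 with ezetimibe, lower in all 4 knockout-labelled mice. These differences were -0.18 (SE 0.11, limma adjusted p = 0.592) without and -0.18 (SE 0.11, adjusted p = 0.781) with ezetimibe. Both rested on wild-type replicate 2 and were -0.08 and -0.08 without it, and the first was -0.05 under median scaling.

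Among genes of strand exchange and break repair, Mnd1 had the lowest unadjusted p, which was also the lowest of the set. Mnd1 and Psmc3ip encode the partners of the HOP2-MND1 complex, which helps the recombinases find the homologue. Mnd1 read 13.58 and 13.43 in wild-type-labelled testes, 13.71 and 13.74 in knockout-labelled testes and 13.76 and 13.81 with ezetimibe, so the 4 knockout-labelled arrays lay above both wild-type-labelled ones. The difference from wild-type-labelled testes was 0.22 (SE 0.10, limma adjusted p = 0.558) without ezetimibe and 0.28 (SE 0.10, unadjusted p = 0.0396, adjusted p = 0.669) with it, the latter a 1.21-fold higher signal. Both use the same wild-type-labelled arrays. The first was 0.15 without wild-type replicate 2 and 0.33 under median scaling, and the second was 0.20 to 0.35 with 1 array left out. Psmc3ip showed no such order, at 16.83 and 16.69, 16.81 and 16.33, and 16.69 and 16.90, with knockout replicate 2 low.

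Dmc1, the recombinase found only in meiosis, read 12.21 and 12.17, 12.11 and 12.24, and 11.78 and 12.17, and stood low on ezetimibe replicate 1. Its signal-to-noise was 3.35 on that array and 13.1 on knockout replicate 2, so it lay nearest the detection limit of the 19 genes detected throughout. Tex15, needed for loading recombinases onto breaks, read 14.75 and 15.05, 14.72 and 14.88, and 14.42 and 14.76, with overlap in every comparison. Brca1, a repair gene that also acts on unsynapsed chromosomes, was not detected on any array, at a raw signal of 202 to 333 and a signal-to-noise from -1.66 to 2.49, and was not tested.

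Among genes detected on all arrays, the largest difference of the knockout-labelled from the wild-type-labelled group was that of a crossover gene, Msh5. Msh5 and Msh4 encode the partners of a clamp that stabilises crossover intermediates. Msh5 read 11.55 and 11.27 in wild-type-labelled testes, 11.68 and 11.87 in knockout-labelled testes and 11.49 and 11.60 with ezetimibe. Both knockout-labelled arrays without ezetimibe were higher than the other 4, by 0.36 log2 units over wild-type-labelled testes (SE 0.14, 95% confidence interval -0.01 to 0.73, unadjusted p = 0.0534, limma adjusted p = 0.545). The same difference was 0.22 without wild-type replicate 2, and that of the ezetimibe arrays from the knockout-labelled arrays was -0.23 (SE 0.14, adjusted p = 0.913), or -0.13 without knockout replicate 2. Msh5 lies on chromosome 17, as does Abcg8, with 471 protein-coding genes annotated between them.

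Msh4 had the same order of groups at a smaller scale, with 12.19 and 11.98, 12.22 and 12.26, and 12.17 and 12.04. Knockout-labelled testes differed from wild-type-labelled ones by 0.16 (SE 0.12, limma adjusted p = 0.642), and ezetimibe testes differed from knockout-labelled ones by -0.13 (SE 0.12, adjusted p = 0.923). The first was 0.05 without wild-type replicate 2 and 0.27 under median scaling, and the second -0.07 without ezetimibe replicate 2. Exo1, a nuclease that resects break ends and works with mismatch repair proteins at crossovers, read 12.28 and 12.23, 12.23 and 12.15, and 11.97 and 12.19, lowest on ezetimibe replicate 1. Both ezetimibe arrays lay below both wild-type-labelled ones, by -0.17 on average (SE 0.11, adjusted p = 0.791), or -0.06 without ezetimibe replicate 1.

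Tex11, an X-linked gene needed for crossovers, was dim. Its signal-to-noise was 1.64 and -0.23 in wild-type-labelled testes, 6.64 and 3.44 in knockout-labelled testes and 3.50 and -0.53 with ezetimibe, so it entered the test through the knockout-labelled group alone, where it had to be high. Its log2 signal was 9.73 and 8.53, 9.74 and 10.00, and 9.87 and 9.25. Measured against a wild-type-labelled group in which it was not detected, it was 1.67-fold higher in knockout-labelled testes (limma adjusted p = 0.593). That ratio rests on wild-type replicate 2: the log2 difference of 0.74 was 0.14 without that array and 1.32 without wild-type replicate 1.

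The damage kinase gene Atm and the ubiquitin ligase gene Rad18, which acts in repair of unsynapsed chromosomes, were lowest on ezetimibe replicate 1. Atm read 10.96 and 11.01 in wild-type-labelled testes, 10.88 and 10.68 in knockout-labelled testes and 10.29 and 10.93 with ezetimibe. Both wild-type-labelled arrays were the highest, and the difference of the ezetimibe arrays from them was -0.38 (SE 0.23, limma adjusted p = 0.782), or -0.05 without ezetimibe replicate 1. Rad18 read 11.87 and 11.78, 11.86 and 11.82, and 11.57 and 11.73, so both ezetimibe arrays lay below the other 4. It differed by -0.19 (SE 0.11, adjusted p = 0.913) from knockout-labelled testes and by -0.17 (SE 0.11, adjusted p = 0.781) from wild-type-labelled testes. Without ezetimibe replicate 1 these were -0.11 and -0.09, and the second was -0.11 under median scaling.

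Ccna1, the germ cell cyclin that spermatocytes need to enter the first division, was lowest in knockout-labelled testes on chow. It read 16.94 and 17.05, 16.71 and 16.89, and 17.02 and 17.03, and differed by -0.20 (SE 0.11, limma adjusted p = 0.584) from wild-type-labelled testes, while the ezetimibe arrays were higher than the knockout-labelled ones by 0.23 (SE 0.11, adjusted p = 0.902). Without knockout replicate 1 these were -0.10 and 0.14, and the first was also -0.10 under median scaling. Meig1, named for its onset in meiosis and needed later for shaping spermatids, read 19.59 and 20.02, 19.65 and 19.89, and 19.67 and 19.88, with replicates further apart than groups. Its raw signal fell less than that of other genes on the dim array, to 0.701 of the value on the other wild-type-labelled array, against a median of 0.345 over all tested probes and 0.274 to 0.434 for the 18 other tested genes besides Tex11. Its raw signal was 690632 to 1025960 over the 6 arrays, and whether the probe neared saturation was not tested.

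**Figure D2:**
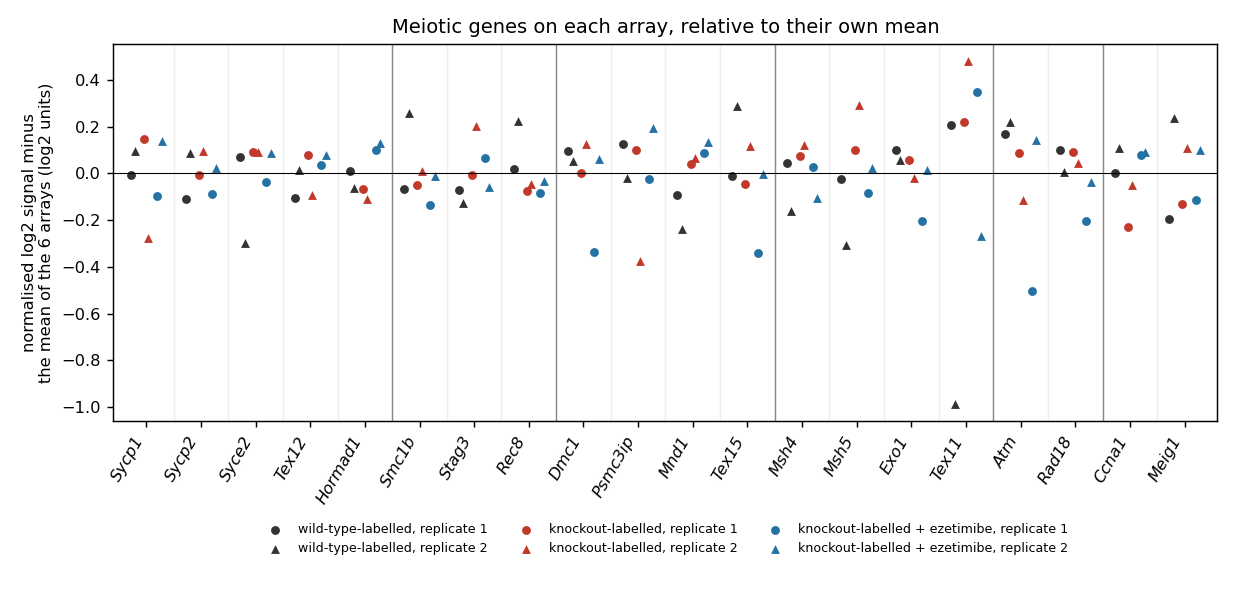
Normalised log2 signal of the 20 tested meiotic genes on each array, minus the gene's mean over the 6 arrays (vertical axis, log2 units), with colours for groups, circles for replicate 1 and triangles for replicate 2. Most points lie within 0.3 units of 0, wild-type replicate 2 stands far below for Tex11, and ezetimibe replicate 1 is the lowest point for 7 genes.

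Across the set, no gene passed the test between testes labelled knockout and wild-type. Limma called 0 of 20 genes, beside 2 of 16015 probes (0.0125%), and 0 of 20 had an unadjusted p under 0.05, beside 8.99% of all probes. With a prior variance that follows signal intensity, limma called 0 of 20, beside 31 of 16015 probes, and the lowest adjusted p was 0.409. In that fit 3 of 20 had an unadjusted p under 0.05 (Mnd1, Msh5 and Ccna1). The share of all probes under that p is not given here for this fit, so the 8.99% is no background for this count. The groups were apart for 10 of 20 genes, beside 43.7% of all probes. Mnd1, Msh5, Msh4, Stag3, Syce2 and Tex11 were higher and Ccna1, Rec8, Atm and Hormad1 lower in knockout-labelled testes. Tex11 is in these counts, though it entered the test through the knockout-labelled group alone, where it had to be high. Of the 20 differences 9 lay above 0 and 11 below, with a median of -0.023, beside 50.9% of all probes above 0 and a median of 0.0052. The median of the set was 0.077 under median scaling, where that of all probes was 0.11, and 0.034 without wild-type replicate 2.

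The comparison of ezetimibe-fed with chow-fed knockout-labelled mice asked what blocking sterol uptake changed. Limma called 0 of 20 genes, beside 0.0% of probes, with 0 of 20 and 5.76% under an unadjusted p of 0.05. With the intensity trend 0 were called, beside 14 probes. In that fit 1 gene (Ccna1) was under that p, a count for which no all-probe share is given here. The groups were apart for 7 of 20 genes, beside 38.8% of probes. Hormad1, Ccna1 and Mnd1 were higher with ezetimibe, and Rad18, Msh5, Msh4 and Syce2 lower. Syce2 differed by -0.06 (SE 0.15), or -0.0028 without ezetimibe replicate 1. Mnd1 differed by 0.06 (SE 0.10), or 0.0015 with the authors' processed values. Both comparisons so far use the same knockout-labelled arrays. Of all 20 differences 8 lay above 0 and 12 below, with a median of -0.071 against 0.00091 for all probes. That median rested on ezetimibe replicate 1 and was 0.0033 without it.

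Between ezetimibe-fed knockout-labelled and wild-type-labelled testes, limma called 0 of 20 genes, beside 0.0125% of probes. Mnd1 was the 1 gene of 20 with an unadjusted p under 0.05, beside 7.24% of probes. With the intensity trend 0 were called, beside 26 probes. In that fit Mnd1 and Tex15 were the 2 under that p, a count for which no all-probe share is given here. The groups were apart for 8 of 20 genes, beside 36.8% of probes: Mnd1, Hormad1, Stag3 and Tex12 were higher with ezetimibe, and Atm, Rad18, Rec8 and Exo1 lower. Differences were split 10 above and 10 below 0, with a median of -0.00071 against 0.0042 for all probes.

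The intervals are per gene, are not adjusted for the number of probes, and show which differences each gene's values leave possible. They do not give the smallest change that would be called. The interval of Mnd1 between ezetimibe and wild-type-labelled testes excluded 0, at a limma adjusted p of 0.669. The SE of a difference was 0.09 to 0.45 with a median of 0.13, beside 0.14 for all probes, and the median half-width of the 95% confidence interval was 0.34 log2 units, or 1.26-fold. For 19 of 20 genes the interval stayed within 1 log2 unit of 0 in each comparison, Tex11 being the exception, and it stayed within 0.5 units for 11, 11 and 10 genes. Over the 19 genes detected throughout, the bounds reached -0.81 and 0.73 for knockout-labelled against wild-type-labelled testes, -0.77 and 0.72 between ezetimibe and knockout-labelled testes, and -0.98 and 0.53 between ezetimibe and wild-type-labelled testes. An interval that includes 0 does not show that a gene was the same in both groups.

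**Figure D3:**
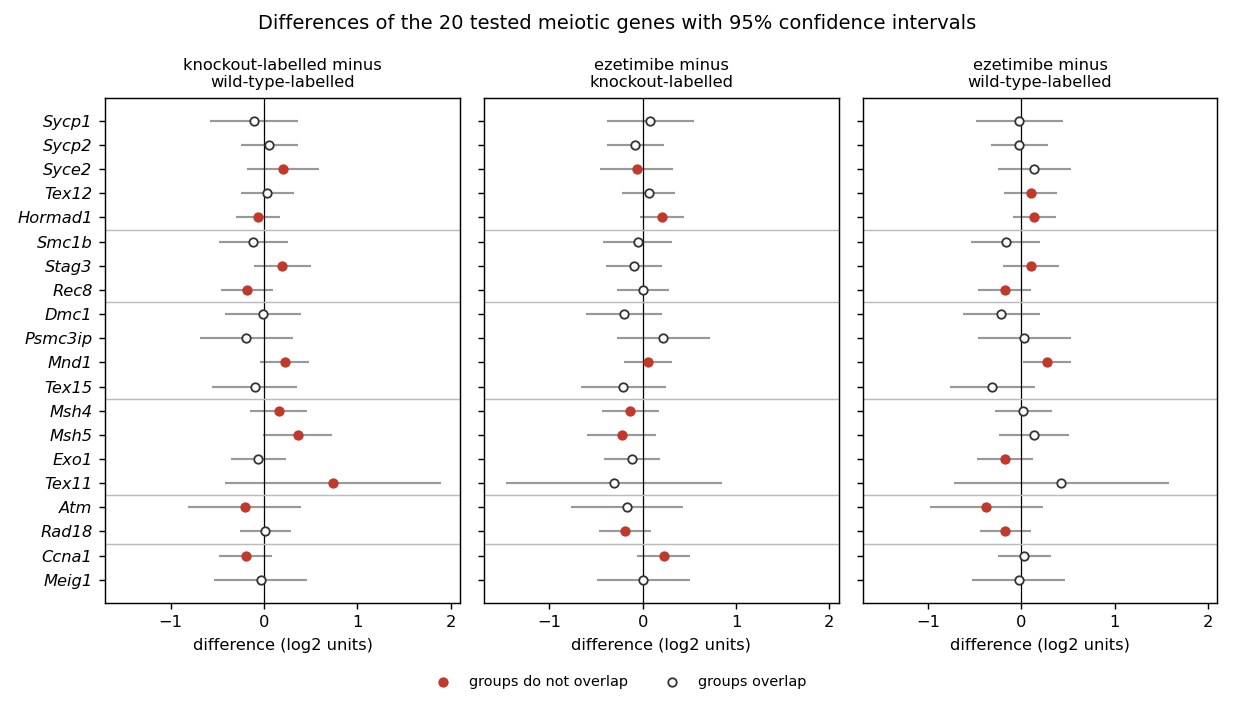
Differences of the 20 tested genes (horizontal axis, log2 units) in the 3 comparisons, with 95% confidence intervals from limma as bars and filled points where the 2 groups do not overlap. All intervals include 0 except that of Mnd1 between ezetimibe and wild-type-labelled testes, and Tex11 has the widest bars.

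Within a group, single arrays stood apart. Ezetimibe replicate 1 gave the lowest value for 7 of 20 genes (35.0%, beside 13.6% of all tested probes) and the highest for 0 (13.9% of probes). Its genes lay at a median of -0.08 log2 units from their means, while the other ezetimibe array lay at 0.04, the knockout-labelled arrays at 0.05 and 0.06 and the wild-type-labelled arrays at 0.01 and 0.03. Wild-type replicate 2, the dimmest array, was highest for 6 genes and lowest for 6, beside 25.8% and 26.3% of all probes. The span over the 6 arrays had a median of 0.38 log2 units in the set and 0.43 over all tested probes, and the median SD within a group was 0.10 and 0.11. Between the lowest and the highest array, genes detected throughout differed by 1.13-fold to 1.65-fold.

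**Figure D4:**
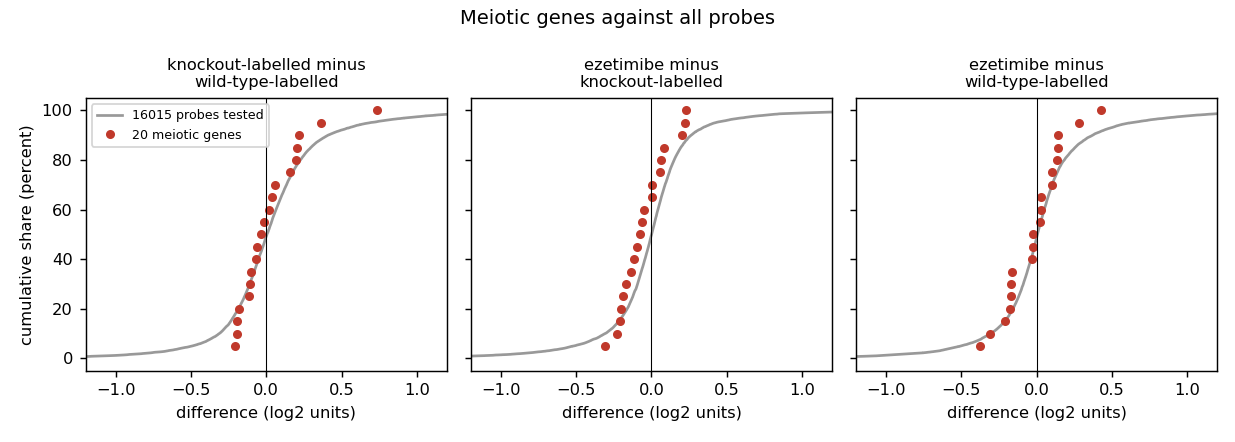
Cumulative share (vertical axis, percent) of the differences in each comparison (horizontal axis, log2 units) for the 20 meiotic genes (points) and all 16015 tested probes (line). The points follow the line, with medians of -0.023, -0.071 and -0.00071 for the genes, and no gene lies in the tails beyond 1 unit.

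A further 115 genes of meiosis were listed by role for comparison, of which 68 had a probe and 54 were tested. Limma called 0 of them in each comparison, beside 0.0125%, 0.0% and 0.0125% of all probes in the order given above. An unadjusted p under 0.05 was found for 3, 1 and 2 of the 54, beside 8.99%, 5.76% and 7.24% of all probes. For knockout-labelled against wild-type-labelled testes, 28 lay above 0 and 26 below, with a median of 0.037. Groups were apart for 46.3% of the 54 in this comparison, beside 43.7% of all probes, for 37.0% beside 38.8% between ezetimibe and knockout-labelled testes, and for 25.9% beside 36.8% between ezetimibe and wild-type-labelled testes. The ATPase gene Fignl1 differed by 0.38 (SE 0.11, limma adjusted p = 0.495) and the spindle checkpoint gene Mad2l1 by 0.26. The cohesin loader gene Nipbl differed by -0.34 and Mre11a, a nuclease gene of break ends, by -0.34, with adjusted p of 0.545 and 0.57.

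With ezetimibe, 28 of the 54 lay above and 26 below their level in knockout-labelled testes, with a median of 0.0081. Mre11a differed by 0.38 and the kinase gene Aurkb by 0.26, while the break repair gene Rad54l differed by -0.58 (SE 0.15, limma adjusted p = 0.701) and the checkpoint clamp gene Hus1 by -0.38. Rad54l read 10.47 and 10.83 in wild-type-labelled testes, 10.89 and 10.99 in knockout-labelled testes and 10.33 and 10.39 with ezetimibe, lowest on both ezetimibe arrays. Against wild-type-labelled testes, 33 lay above and 21 below 0, with a median of 0.016, beside 51.1% of all probes above 0. There Fignl1 differed by 0.44 (SE 0.11, limma adjusted p = 0.563), Rad54l by -0.29 and the cohesin gene Stag1 by -0.47. Rad9a, another checkpoint clamp gene, passed detection on neither wild-type-labelled array and entered the test through the other groups, where it had to be bright enough. Its measured ratio was 1.90-fold higher with ezetimibe, which is not a lower bound (log2 difference 0.93, SE 0.27, adjusted p = 0.634). Spermatocyte division genes, a role picked here with its counts known, had 8 of 10 members below 0 in knockout-labelled against wild-type-labelled testes. Their median was -0.12, and 50.9% of all probes lay above 0. Between ezetimibe and knockout-labelled testes 7 of 10 lay above 0, beside 50.2% of all probes, with a median of 0.11. Both comparisons share the knockout-labelled arrays. Other roles differed: crossover genes had 5 of 6 above 0 in the first comparison and 3 of 6 in the second, and strand exchange and break repair genes 6 of 11 and 7 of 11.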

How the data were processed

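Testis RNA of 6 mice was hybridised after digoxigenin labelling, with 1 array per mouse and 1 colour (the labels' protocols). Per the file headers, the deposited raw table gives each probe's intensity on each array and beside it a score, the signal-to-noise. The sources used here name neither the scanner software nor how that score was made. The authors' deposited second table holds processed intensity values, each array's raw values over a constant of its own, and was tried as an alternative. Per-sample columns left unused numbered 0. Replicates were numbered in accession order and pair nothing. The labels give no batch.

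Raw signals were taken as log2 and quantile-normalised with limma 3.58.1 in R 4.3.3, without further background correction, and 16015 probes with a signal-to-noise of at least 3 on both arrays of a group were kept. The model (lmFit and eBayes, checked on simulated data) had 1 mean per group and 1 spread over all arrays. With 2 arrays per group, an exact permutation test has a smallest p of 0.333. All p-values are therefore limma's, and the number of arrays limits the precision. For a gene not detected in a group, values below the lowest detected signal of an array were to be raised to that signal. None of the values of Tex11 or Rad9a lay below it, so their folds are measured ratios and not lower bounds. Gene symbols came from the platform annotation, updated through RefSeq of GRCm38.p6. Of the probes, 14411 had 1 symbol, 247 several (naming no gene) and 18354 none listed. Where a gene outside the set had several probes, the brightest stood for it. The members, the other meiosis genes, the markers and the motifs were chosen with earlier results of these data known, so counts over them are descriptions. All members are named. From the other meiosis genes, the 2 with the lowest p per direction and comparison are named. Alternatives tried were scaling to the median, the processed values of the authors, normexp with an offset of 50, other detection filters, an intensity trend, array weights, fits to the compared groups alone and each array left out.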

Additional observations from a re-analysis of the deposited data

How the results depend on the processing

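No setting called any of the meiotic genes over 14 alternative fits per comparison. The fits with an array left out leave 1 array in a group. Without wild-type replicate 1, Tex11 in knockout-labelled testes was set against 1 array on which it was not detected, at a log2 difference of 1.32. Groups that are apart nearly always keep their sign when an array is left out. The detection filters, intensity trend and array weights left the differences themselves unchanged. Keeping a sign was thus nearly fixed in advance: of 25 differences whose groups were apart, 24 kept it under all alternatives run. The exception was Hormad1 in knockout-labelled against wild-type-labelled testes, which turned from -0.06 to 0.053 under median scaling and to 0.054 with the authors' processed values. Both settings divide each array by 1 constant of its own, so they are not separate checks. In that comparison both settings bring the median of all probes from 0.0052 to 0.11, and the set's median to 0.077 and 0.078. In ezetimibe against wild-type-labelled testes they move it to 0.056 and 0.056, where the median of all probes moves to 0.058 and 0.058. Of 35 differences with overlapping groups, 27 changed sign under at least 1 alternative. Leaving out 1 array at a time, the set's median ranged from -0.033 to 0.034, from -0.088 to 0.0033 and from -0.078 to 0.040 in the 3 comparisons.

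The count of all probes called for knockout-labelled against wild-type-labelled testes, 2, was 0 with no filter on dim probes, 4 among probes detected on all arrays, 31 with the intensity trend, 0 in a fit to those groups alone and 0 to 1 with an array left out. Between ezetimibe and knockout-labelled testes, 0 became 14 with the intensity trend and 0 to 4 with an array left out. Between ezetimibe and wild-type-labelled testes, 2 became 0 with no filter, 26 with the intensity trend, 1 with array weights, 1 in a fit to those groups alone and 0 to 3 with an array left out. The cause was not tested. No paired analysis was possible because the labels give the groups no shared replicate numbers. Signal over background limits Tex11 and Brca1, and no value here holds for the 13 genes without a listed probe.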
